A study of Chlorocebus sabaeus with 3 samples.

Results

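The nuclear-encoded genes of the mitochondrial respiratory chain were described in cell-free RNA of amniotic fluid supernatant from vervet monkeys (Chlorocebus sabaeus). Members were chosen by gene name, as the numbered subunits of complex I (NDUFA, NDUFB, NDUFC, NDUFS and NDUFV), SDHA to SDHD of complex II, UQCR genes and CYC1 of complex III, COX4 to COX8 of complex IV, and ATP5 genes of complex V. This gave 56 of the 33994 genes in each table, of which 35 belong to complex I, 4 to complex II and 17 to complex V. No gene of complex III or IV carries such a name in the tables, where these loci are listed under LOC and a number. A further 26 LOC genes, 9 of complex III and 17 of complex IV, took a matching symbol through their RefSeq gene ID, and these are named as matched by gene ID and counted apart from the 56. NDUFA1, NDUFS5 and the subunits encoded by mitochondrial DNA were not analysed here.

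The study has 3 libraries, each the only one of its status label. One is labelled stillborn with sex M, another spontaneous abortion with no sex given, and the last alive with sex F. No treatment, genotype or gestational age is given in the sources used here. With 1 library per status there was no replicate check and no test between conditions. The comparisons are between libraries, in which status, animal and labelled sex cannot be told apart. Which cells of the fluid the RNA came from is not given, and in such a bulk sample fewer cells of a type and less RNA per cell cannot be told apart.

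The respiratory chain passes electrons from NADH (complex I) and succinate (complex II) through ubiquinone, complex III and cytochrome c to oxygen at complex IV. Complexes I, III and IV pump protons across the inner mitochondrial membrane, and complex V, the ATP synthase, uses the gradient to make ATP. Complex II is also an enzyme of the citric acid cycle and is the one complex whose subunits are all encoded in the nucleus.

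Levels are given as the deposited RPKM (reads scaled to gene length and sequencing depth), in the order stillborn, spontaneous abortion and alive. Whole reads were recovered from these values, with 17749954, 29926352 and 20220899 reads in the respective libraries. Ratios are of reads after TMM scaling, which brings the bulk of genes to a common level, and each is followed by its exact 95% counting interval. These intervals cover counting error only, since reads without molecular identifiers are not independent molecules and no spread between animals was measured. A gene was called past 2-fold when its scaled ratio reached 2, its interval left out 1 and the higher library had at least 30 reads. All 56 members had a mean RPKM of at least 1 and at least 30 reads in every library. Scaling by total reads alone, as in the deposited RPKM, lowers every stillborn over alive log2 ratio by 0.16 and every stillborn over spontaneous abortion log2 ratio by 0.12, so the median of all genes then stands at -0.17 and -0.14.

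The members together held the largest share of the summed RPKM in the alive library. Their share was 0.630% in the stillborn library, 0.752% in the spontaneous abortion library and 0.916% in the alive library. Complex I held 0.313%, 0.383% and 0.476%, and complex V held 0.305%, 0.354% and 0.422%. Complex II held 0.0121%, 0.0158% and 0.0186%. Each complex had the same order of libraries, and so did the genes matched by gene ID, with 0.0829%, 0.103% and 0.116% for complex III and 0.173%, 0.194% and 0.238% for complex IV. These shares divide by the summed RPKM of all genes, which was 435349, 380879 and 398506. Before that division complex IV summed to 751, 740 and 950 RPKM, with the spontaneous abortion library lowest. After TMM scaling, the members' median log2 ratio in stillborn over spontaneous abortion was 0.04. The order of the stillborn and spontaneous abortion libraries therefore rests on the scaling. Counted as reads, with no division by length, the 56 members took 0.272% of the stillborn library (95% Wilson interval 0.270% to 0.275%), 0.298% of the spontaneous abortion library (0.296% to 0.3003%) and 0.358% of the alive library (0.356% to 0.361%).

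**Figure D1:**
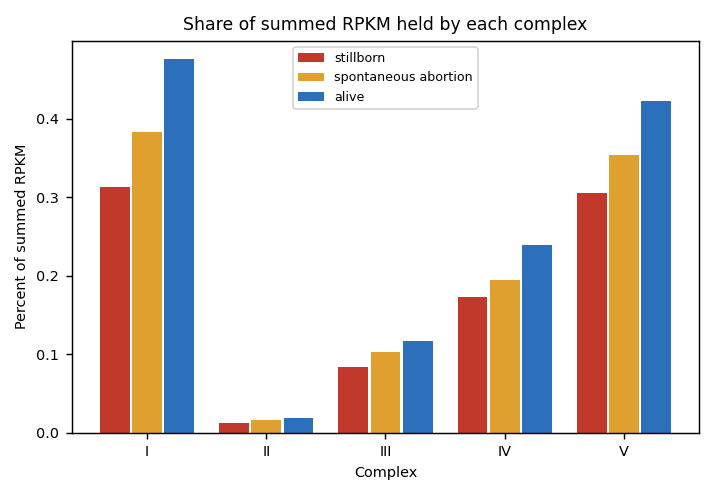
Percent of the summed RPKM (y axis, from 0) held by the genes of each complex (x axis) in the 3 libraries, 1 bar per library; complexes III and IV are the genes matched by gene ID. The alive bar is the tallest and the stillborn bar the shortest in all 5 complexes, from 0.313% against 0.476% for complex I to 0.0121% against 0.0186% for complex II. Each share is of the library's own summed RPKM, which was largest in the stillborn library.

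Gene by gene, the alive library was the highest of the 3 for 39 of 56 members, or 69.6%, while it was the highest for 38.0% of the 10229 genes that averaged 1 RPKM or more. It was the lowest for 8 members, against 36.8% of all such genes. The stillborn library was the highest for 13 members (37.4% of all genes) and the lowest for 24 (40.1%). The spontaneous abortion library was the highest for 4 members (24.7% of all genes) and the lowest for 24 (23.2%). Of the 21 genes of complexes III and IV that averaged 1 RPKM or more, the alive library was the highest for 14. Scaled by total reads, the alive library was the highest for 47 of the 56 members.

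Most members varied little between the libraries. Their median coefficient of variation over the 3 scaled values was 15.5%, against 21.8% for all genes averaging 1 RPKM or more. This was not particular to them, with 12.3% for citric acid cycle genes and 14.8% for proteasome genes. It was 19.0% for cytosolic and 19.5% for mitochondrial ribosomal protein genes. NDUFS3, a core subunit of complex I, was the steadiest member, with a coefficient of 2.68% and levels of 35.2, 38.8 and 37.9 RPKM. SDHD, a membrane anchor of complex II, was the most variable at 59.0%.

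The single members with the highest levels belonged to complex V and to the membrane arm of complex I. As a group the membrane arm was not high, with a median RPKM of 23.3, 26.6 and 33.7. The median over all 56 members was 31.6, 32.6 and 39.3. RPKM rests on a length divisor that could be recovered for each gene, and it ran from 108 bases for ATP5E to 12554 bases for NDUFS1, with a median of 971.5 bases over the members. Among all genes matched to RefSeq, the median divisor was 2633 bases where a gene has 1 RefSeq transcript and 36257 bases where it has 11 or more, so the order of levels between genes moves with this divisor, while the ratio of 1 gene between libraries does not. ATP5E, the epsilon subunit of the ATP synthase head, stood at 291, 202 and 310.0 RPKM on the shortest divisor. ATP5B, the catalytic beta subunit, stood at 175, 253 and 304 RPKM, and the alpha subunit ATP5A1 at 189, 216 and 243 RPKM. In complex I the membrane arm subunits NDUFB7, at 181, 208 and 267 RPKM, and NDUFB4, at 160.0, 168 and 257 RPKM, were the highest. NDUFS1, the largest core subunit of complex I, was the lowest member of its complex on the longest divisor. Of the 56 members, 9 had a mean RPKM above 100 and 10 a mean under 10.

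**Figure D2:**
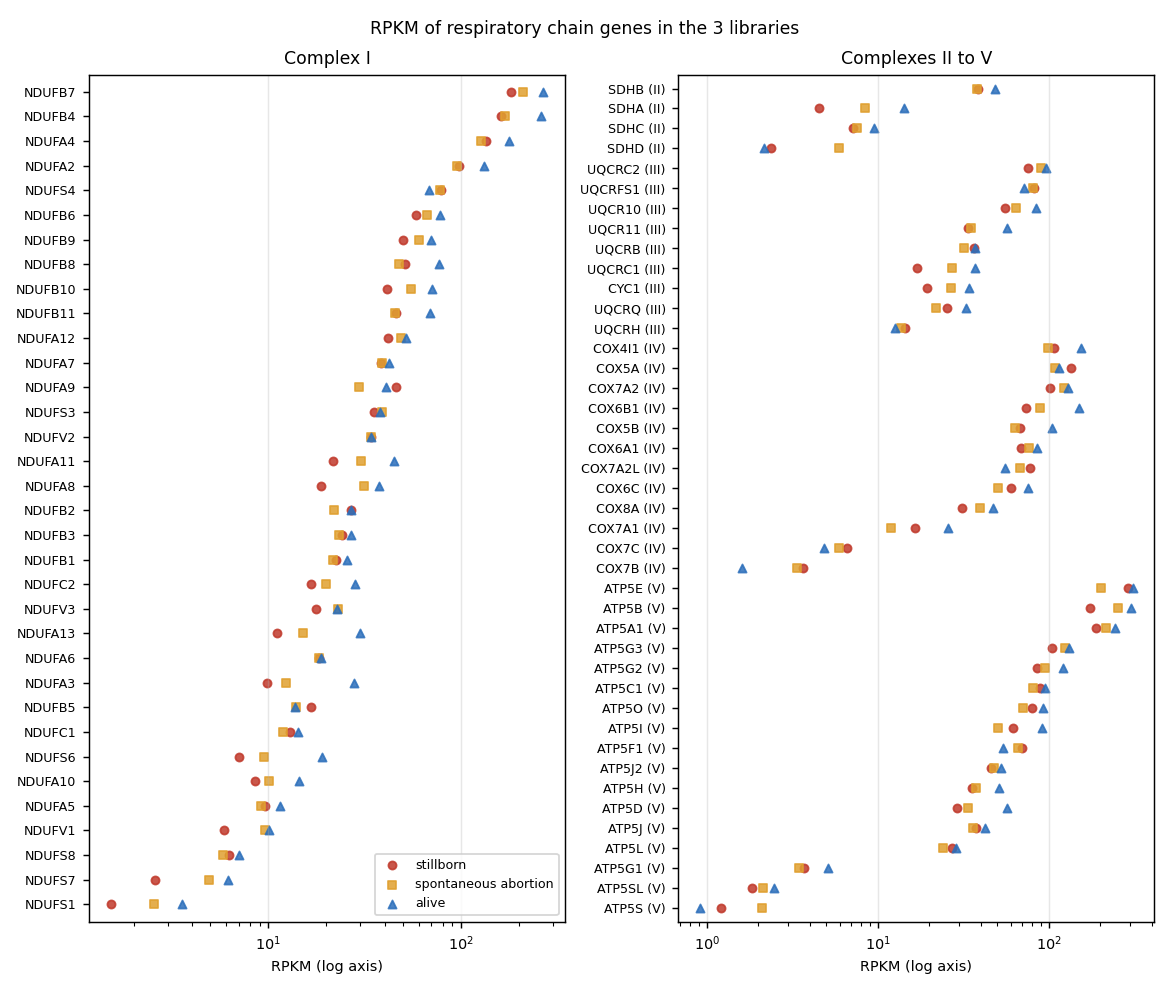
RPKM (log axis) of each gene in the stillborn (circle), spontaneous abortion (square) and alive (triangle) library, with 1 symbol per library, for complex I on the left and complexes II to V on the right; genes of complexes III and IV are those matched by gene ID, and the 5 of them with a mean RPKM under 1, and 1 other gene, are not drawn. The alive triangle lies rightmost for most genes, by the widest margin over the stillborn circle for SDHA. NDUFS4, ATP5F1 and COX7A2L are among the genes for which it lies leftmost.

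Against the alive library, 7 members were lower by at least 2-fold in the stillborn library and 0 were higher. These 7 are 12.5% of the members, and 12.5% of all 13500 genes that could be called were lower by the same rule, while 13.1% were higher. The members' share of lower calls was therefore that of all genes. At 1.5-fold, 15 members were lower (23.6% of all genes) and again 0 were higher (22.8% of all genes). At 4-fold, 0 members were called in either direction, against 3.23% of all genes lower and 4.71% higher. The members' median log2 ratio was -0.24, against -0.01 for all genes and 0.01 for the 2097 genes in the middle range of the members' length divisors, and 40 of 56 members lay below 0.

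Catalytic and core subunits were among the members lower in the stillborn library. SDHA, the flavoprotein that oxidises succinate, stood at 4.55, 8.47 and 14.3 RPKM. It was 2.80-fold lower in the stillborn than in the alive library (2.34 to 3.37), and the spontaneous abortion value lay between them. NDUFS7, an iron-sulfur subunit of complex I, stood at 2.58, 4.95 and 6.20 RPKM and was 2.15-fold lower (1.65 to 2.81). NDUFS1, which carries iron-sulfur clusters, stood at 1.52, 2.56 and 3.57 RPKM and was 2.10-fold lower (1.85 to 2.38). These 3 genes shared the same order of libraries, with the stillborn library lowest and the alive library highest.

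Accessory subunits of complex I were also called, with the same order of libraries as SDHA, NDUFS7 and NDUFS1. In these accessory subunits both loss libraries lay closer to each other than to the alive library. NDUFA3 stood at 9.80, 12.4 and 27.8 RPKM and was 2.53-fold lower in the stillborn than in the alive library (1.93 to 3.35). NDUFA13 stood at 11.0, 15.2 and 29.9 RPKM and was 2.43-fold lower (2.05 to 2.88). NDUFS6, of the NADH-oxidising module, stood at 7.04, 9.54 and 19.0 RPKM and was 2.41-fold lower (1.82 to 3.23). NDUFA11 lay just short of the threshold, 1.87-fold lower (1.63 to 2.15).

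Not all core subunits shared this pattern. NDUFV1, which binds NADH, stood at 5.89, 9.64 and 10.1 RPKM, a stillborn over alive ratio of 0.653 (0.539 to 0.788). NDUFV2, its iron-sulfur partner, stood at 34.0, 34.2 and 34.0 RPKM, nearly equal as deposited, with a scaled ratio of 1.12 (1.03 to 1.22). NDUFS8, an iron-sulfur subunit of the ubiquinone module, stood at 6.22, 5.84 and 7.03 RPKM with a ratio of 0.990 (0.873 to 1.12). Of the 8 genes placed in the ubiquinone module, 4 lay above 0 and 4 below in stillborn over alive, with a median log2 ratio of 0.01 that falls below 0 with scaling by total reads. The 8 of the NADH-oxidising module had a median of -0.23 and the 18 of the membrane arm a median of -0.42, with 14 of 18 below 0. In complex II, SDHB, the iron-sulfur subunit, stood at 38.7, 38.1 and 48.3 RPKM and the anchor SDHC at 7.14, 7.58 and 9.46 RPKM, so neither came near the difference of SDHA.

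The 17 ATP5 genes of complex V are 15 subunits of the ATP synthase with ATP5S and ATP5SL. Of these, 0 were called between the stillborn and the alive library, against 12.5% of all genes lower and 13.1% higher. Their median log2 ratio was -0.17. The catalytic ATP5B had a ratio of 0.643 (0.623 to 0.664), while ATP5A1, which forms the hexamer with it, had 0.870 (0.843 to 0.898). The 5 genes of the head had a median of -0.20, the 4 of the peripheral stalk -0.04 and the 6 of the membrane part -0.23. Subunit c, which forms the rotating ring, is made from 3 genes with the same mature protein. Of these ATP5G3 stood at 104, 125 and 131 RPKM, ATP5G2 at 85.8, 94.9 and 121 RPKM and ATP5G1 at 3.71, 3.48 and 5.11 RPKM. All 3 were highest in the alive library.

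No member was called higher in the stillborn than in the alive library, and the 3 with the largest ratios came from different places. ATP5S, known as factor B and not a subunit of the synthase, stood at 1.22, 2.09 and 0.914 RPKM with a ratio of 1.49 (1.04 to 2.15). ATP5F1, subunit b of the peripheral stalk, stood at 69.6, 66.4 and 53.9 RPKM with a ratio of 1.44 (1.37 to 1.52). NDUFB5, of the membrane arm of complex I, stood at 16.6, 13.9 and 13.7 RPKM with a ratio of 1.35 (1.25 to 1.47).

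**Figure D3:**
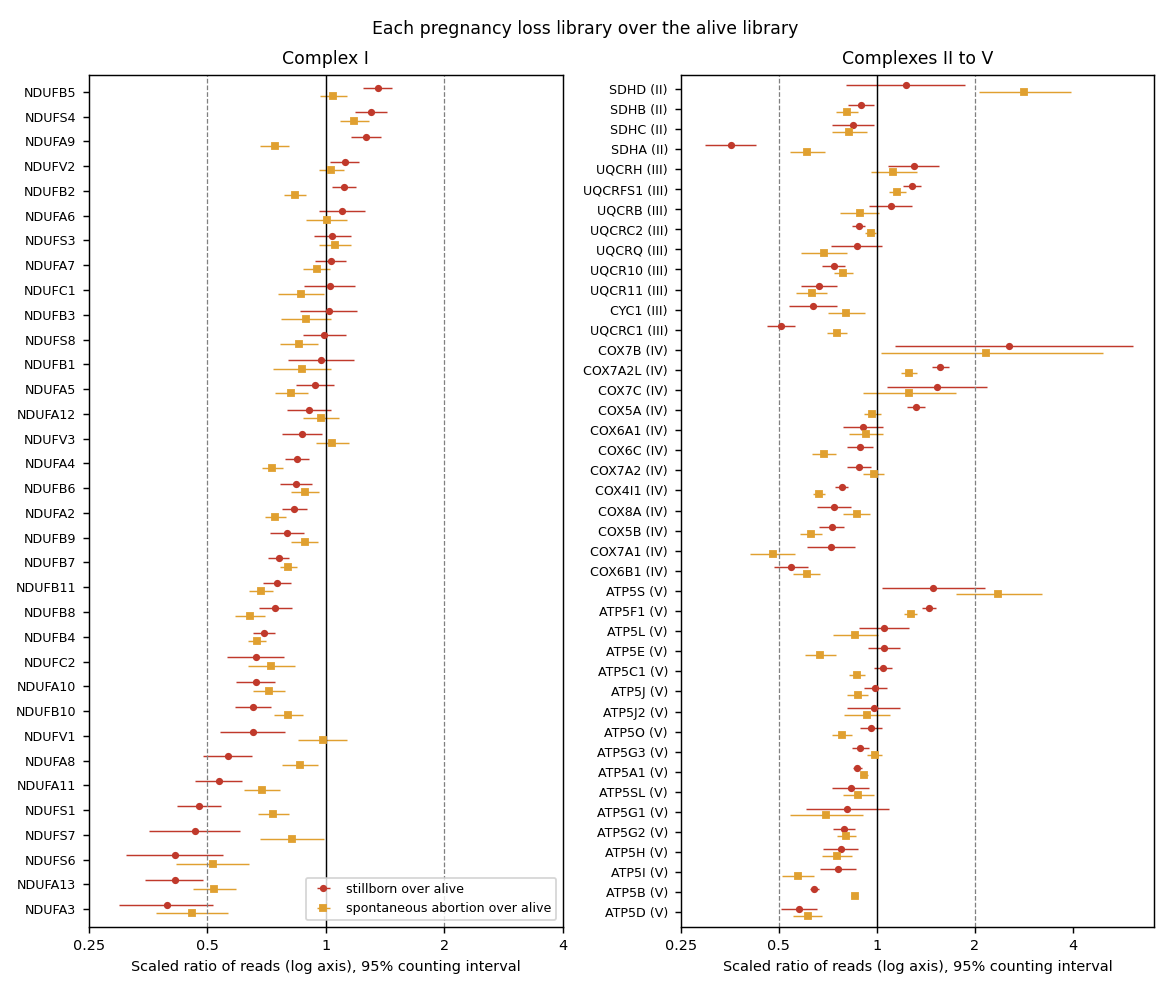
Scaled ratio of reads (log axis) of the stillborn (circle) and spontaneous abortion (square) library over the alive library for each gene, with bars for the 95% counting interval, a solid line at 1 and dashed lines at 0.5 and 2; 1 gene is not drawn. In complex I the circles run from NDUFA3, 2.53-fold lower, to NDUFB5 at 1.35, and SDHD, ATP5S and COX7B are the squares past 2 on the right panel.

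Between the spontaneous abortion and the alive library, 2 members were called higher and 1 lower, against 7.69% and 5.72% of the 13856 genes that could be called. At 1.5-fold, 2 were higher (15.4% of all genes) and 7 lower (13.1%). At 4-fold there were 0 in both directions (2.30% of all genes higher and 1.51% lower). Yet 47 of 56 members lay below 0, and their median log2 ratio was -0.27, against -0.01 for all genes and -0.10 for the genes in the middle range of the members' divisors. The differences were thus small and mostly in 1 direction, with a median of -0.28 for complex I, -0.29 for complex II and -0.22 for complex V. This comparison and the preceding one share the alive library, so their values are not independent of each other.

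SDHD, which with SDHC anchors complex II in the membrane and holds its ubiquinone site, departed furthest from the other members. It stood at 2.36, 5.93 and 2.16 RPKM, from 48, 203 and 50 reads. It was 2.82-fold higher in the spontaneous abortion library than in the alive one (2.06 to 3.92), and only this library stood apart. Its partner SDHC had a ratio of 0.824 (0.726 to 0.935), SDHB one of 0.809 (0.746 to 0.878) and SDHA one of 0.610 (0.539 to 0.691), so the 4 genes of complex II did not move as a unit. ATP5S was 2.35-fold higher (1.75 to 3.20). NDUFA3 was the member called lower, by 2.18-fold (1.77 to 2.70), with NDUFS6 at 1.94-fold (1.57 to 2.41) and NDUFA13 at 1.92-fold (1.69 to 2.18) just short of the threshold.

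Between the stillborn and the spontaneous abortion library, the members were spread evenly about 0. There were 29 above 0 and 27 below, with a median log2 ratio of 0.04, which became -0.08 with scaling by total reads. SDHD was the 1 member called lower, by 2.30-fold (1.68 to 3.23), against 7.48% of the 13860 genes that could be called. That call was lost when reads were drawn at random down to the total of the shallowest library. None of the members was called higher, against 7.55% of all genes. At 1.5-fold, 8 were lower (17.1% of all genes) and 2 higher (15.6%), and at 4-fold 0 were lower (1.65%) and 0 higher (2.81%). NDUFA9, an accessory subunit next to the ubiquinone site, had the largest ratio at 1.71 (1.57 to 1.86), with 46.0, 29.3 and 40.7 RPKM. ATP5E followed at 1.57 (1.40 to 1.76) and NDUFB2 at 1.33 (1.25 to 1.42). In each of these 3 genes the spontaneous abortion library was the lowest.

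Complex III, matched by gene ID, had 9 genes, all with a mean RPKM of at least 1. In stillborn over alive 0 of them were called, against 12.5% of all genes lower and 13.1% higher. Its median log2 ratios were -0.21 in stillborn over alive and -0.31 in spontaneous abortion over alive. The core protein UQCRC1 came closest to a call, with 16.9, 27.2 and 37.2 RPKM, 1.97-fold lower in the stillborn than in the alive library (1.79 to 2.168). Its partner UQCRC2, the highest gene of the complex, stood at 76.1, 90.2 and 96.8 RPKM with a ratio of 0.880 (0.840 to 0.921). CYC1, which passes electrons on to cytochrome c, stood at 19.5, 26.8 and 34.2 RPKM with a ratio of 0.639 (0.539 to 0.755). The Rieske iron-sulfur protein UQCRFS1 lay on the other side, at 82.3, 80.8 and 71.9 RPKM with a ratio of 1.28 (1.2 to 1.37). UQCRH, a small subunit and the lowest gene of the complex, stood at 14.5, 13.7 and 12.6 RPKM.

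Complex IV, matched by gene ID, had 12 of 17 genes averaging 1 RPKM or more, and the 5 below were all isoforms known for restricted expression. The lung isoform COX4I2 had 0, 3 and 2 reads, where its common partner COX4I1 stood at 107, 99.5 and 154 RPKM. The muscle isoform COX6A2 had 2, 1 and 4 reads and the testis isoform COX6B2 had 1, 1 and 4 reads, and the testis isoforms COX7B2 and COX8C had 0 reads in every library, where a count of 0 allows up to 3 reads. Their common partners were well detected, with COX6A1 at 69.0, 76.3 and 85 RPKM, COX6B1 at 73.6, 89.4 and 151 RPKM and COX8A at 31.2, 39.8 and 47.3 RPKM. COX5A, at 136, 109 and 115 RPKM, was with COX4I1 the highest of the complex.

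COX7A1, the isoform known from heart and skeletal muscle, was the exception among the restricted isoforms. It stood at 16.6, 11.9 and 25.6 RPKM and was 2.09-fold lower in the spontaneous abortion library than in the alive one (1.78 to 2.45). Its common partner COX7A2 stood at 102, 123 and 129.6 RPKM with a ratio of 0.977 (0.908 to 1.05). Of 11 muscle markers listed, CKM, MYH3, MYH7, MYL1 and MYL2 were at 0 in all 3 libraries. The summed RPKM of the list was 23.3, 14.3 and 34.7, most of it from TNNT1, at 15.8, 8.25 and 25.9 RPKM, and TNNC1, at 5.56, 3.58 and 7.46 RPKM. These sums and both genes had the order of libraries of COX7A1, while TNNT3, at 1.66, 2.14 and 1.14 RPKM, had the opposite order. ACTA1, MB and TNNI1, with at most 13 reads in any library, did not share the order of COX7A1 either. The part of muscle cells in the difference of COX7A1 was not tested.

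In COX5A, COX7B, COX7C and COX7A2L the stillborn library was the highest. COX7B stood at 3.68, 3.39 and 1.62 RPKM and was called 2.15-fold higher in the spontaneous abortion library than in the alive one, on 31 against 10 reads (1.03 to 4.92). COX7A2L, which acts in joining complexes III and IV into supercomplexes, stood at 77.4, 67.6 and 55.5 RPKM with a stillborn over alive ratio of 1.56 (1.47 to 1.66). NDUFA4, named for complex I and now placed with complex IV, stood at 134, 126 and 178 RPKM, with the alive library highest.

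Genes that build or supply the chain did not share 1 pattern. In stillborn over alive, the median log2 ratio was -0.13 over 12 assembly factors of complex I and 0.05 over 23 of complex IV, the latter below 0 with scaling by total reads. Called genes ran in both directions, as over all genes, of which 12.5% were lower and 13.1% higher. For complex I, FOXRED1 was 3.92-fold lower (0.307, 0.640 and 1.35 RPKM), while TMEM186 was higher at 2.37 and COA1 at 2.08. For complex IV, COX16 was higher at 2.49 (15.6, 10.1 and 6.99 RPKM) and SURF1, whose loss is known to impair complex IV assembly, at 2.21, with 0 called lower. None of the assembly factors of complexes II and III was called. For the ATP synthase, ATPAF2, which assembles the head, was 2.84-fold lower in the stillborn than in the alive library (3.91, 5.0 and 12.4 RPKM), and TMEM70, which acts on subunit c, was higher at 2.47 (9.19, 4.08 and 4.16 RPKM). Of 11 genes of cytochrome c and ubiquinone synthesis, COQ7 was called lower and PDSS1 higher in the same comparison. Of 28 genes of mitochondrial import and membrane structure, the import pore TOMM40 (3.10-fold), TIMM13 (2.94-fold) and PHB (2.03-fold) were lower and TOMM5 was higher at 2.30, with 14 genes above 0 and 14 below. Of 17 citric acid cycle genes, OGDH (2.37-fold) and IDH3B (2.19-fold) were lower and 0 were called higher, with a median of -0.26. Among 14 regulators of mitochondrial biogenesis, 13 could be called in this comparison, and NRF1, POLRMT and PPRC1 were lower and 0 higher. Over the 11 averaging 1 RPKM or more, the median log2 ratio was 0.01, with 6 above 0 and 5 below. That median falls below 0 with scaling by total reads.

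The members' medians lay near those of other housekeeping mitochondrial and proteolytic genes. In stillborn over alive, the median log2 ratio was -0.24 over 72 mitochondrial ribosomal protein genes and -0.23 over 37 proteasome genes. Of the mitochondrial ribosomal genes 8 were called lower, MRPL49 by 2.53-fold and MRPL12 by 2.50-fold among them, and MRPL1 was called higher, while PSMD2 was the proteasome gene called lower, by 2.32-fold. The 77 cytosolic ribosomal protein genes had a median of 0.20 in this comparison, with 54 above 0, and of 0.52 in stillborn over spontaneous abortion, against the members' -0.24 and 0.04. The alive library was the highest for 45 of the 72 mitochondrial ribosomal and 24 of the 37 proteasome genes. These lists are given as counts and medians, and no difference between them and the members was tested.

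**Figure D4:**
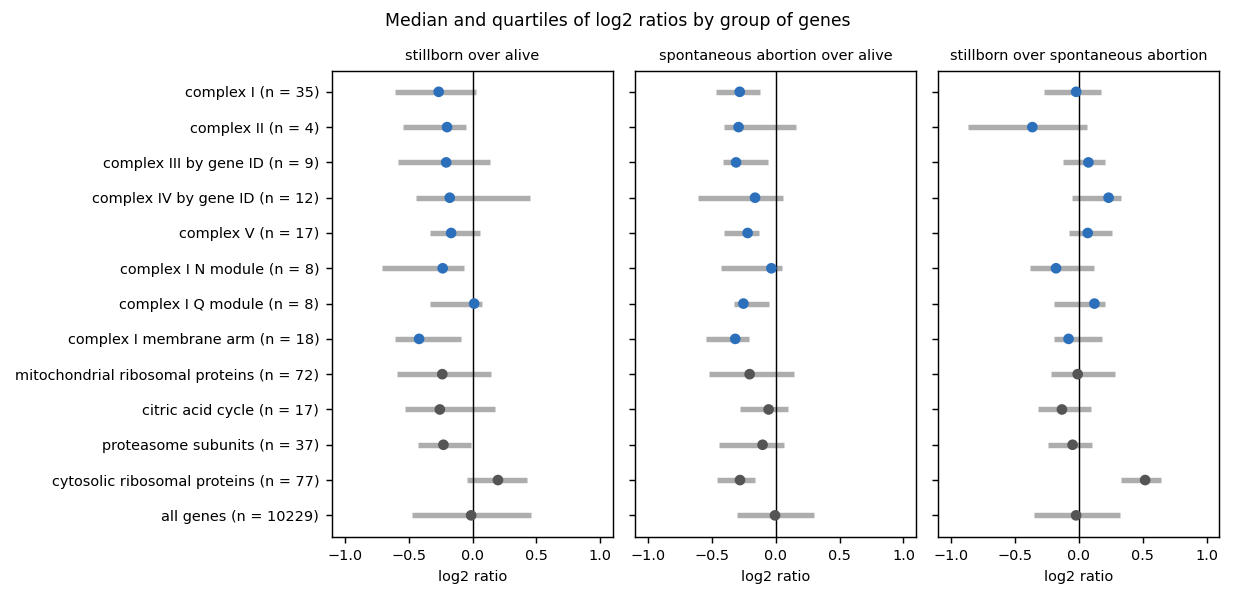
Median (point) and quartiles (bar) of the log2 ratio, log2((RPKM + 0.1) ratio) after TMM scaling, for groups of genes averaging 1 RPKM or more in the 3 pairs of libraries. The complexes lie left of 0 in both pairs over the alive library, with -0.27 and -0.28 for complex I, while all genes lie at -0.01.

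Markers of other cell types and of dividing cells also differed between the libraries. Of 4 proliferation markers, all 4 were called lower in the stillborn than in the alive library, and their summed RPKM was 33.1, 104 and 135. In the same comparison, 4 of 6 squamous epithelial markers were called higher and 1, KRT5, lower, with a summed RPKM of 865, 464 and 313. Of 7 macrophage markers, 4 were called higher, with a summed RPKM of 37.2, 10.4 and 13.0. Of 4 neutrophil markers, S100A8 and S100A9 were called higher, with a summed RPKM of 17.3, 3.34 and 1.1 over the list. CSF3R had 0, 8 and 0 reads, so only the spontaneous abortion library held any, and S100A12 was at 0 in all libraries. Of 4 simple epithelial markers, EPCAM was called higher and KRT8 lower, with a summed RPKM of 430.0, 572 and 713.5. The sums of the proliferation, simple epithelial and liver lists had the order of libraries of the members' share. The liver sum was 173, 234 and 241 RPKM, most of it from APOA2, at 146, 208 and 189 RPKM. The sums of the squamous, macrophage, neutrophil, fibroblast, erythroid, kidney tubule, brown fat and muscle lists had other orders. The part of these cells in the members' differences was not tested.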

How the data were processed

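Cell-free RNA of 3 amniotic fluid supernatants was sequenced after SPIA amplification, per the labels' protocols. Per the submitters' processing notes, the tools were bcl2fastq 2.17, STAR and HTSeq. The deposited values are RPKM per gene. The annotation, build, strand setting, treatment of reads shared by near-identical copies, and RPKM step were not given in the sources used here, so genes with close copies or pseudogenes are uncertain. Whole reads and length divisors were recovered from the deposited RPKM for 99.9914% of 23276 genes above 0, within the rounding of the values. If every count of a gene shares a factor, these reads are a lower bound. TMM factors were 0.936, 1.02 and 1.05 for the stillborn, spontaneous abortion and alive libraries, computed in Python 3.11.15 with numpy 2.4.6 and scipy 1.17.1, and the steps were tested on simulated data. Ratio intervals are exact Clopper-Pearson, given the sum of both libraries' reads. Medians used log2(RPKM + 0.1) over genes averaging 1 RPKM or more, which understates differences of low genes.

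Of 17250 LOC names, 866 took a RefSeq symbol (assembly mChlSab1.0.hap1). Named genes were those called past 2-fold (otherwise the 3 with the largest ratio), the 2 highest and the lowest of each complex, isoform families, the catalytic core, and up to 3 called genes per direction of related lists. NDUFA4, NDUFA11, NDUFS4 and UQCRC1 were chosen after their values were seen. The members and lists were chosen with earlier results of these data known. The groups within complexes I and V were drawn up after values were seen, and the cytosolic ribosomal list was narrowed then, because its name pattern also took ribosomal S6 kinases. The values of 1 member are not reported here, though it stays in the counts, shares and medians.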

Additional observations from a re-analysis of the deposited data

How the results depend on the processing

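No paired analysis was possible because each status has 1 library, and for the same reason no library could be left out. Of 202 recomputed values, 179 kept their direction and stayed within a tolerance, which was a factor of 1.5 for counts, an unaltered call for single genes, the counting interval for shares and, for medians, the median half-width of the members' counting intervals (0.168 in stillborn over alive, 0.139 in spontaneous abortion over alive and 0.165 in stillborn over spontaneous abortion). All 78 medians over the alive library did so, with the members' median between -0.40 and -0.21 in stillborn over alive and between -0.31 and -0.25 in spontaneous abortion over alive. With scaling by total reads, which lowers each stillborn over alive log2 ratio by 0.162, the medians of that comparison moved to -0.40 for the members and -0.33 for complex V. That shift, and one of 0.040 in spontaneous abortion over alive, are smaller than the tolerances. Staying within the tolerance under this scaling was therefore settled beforehand, and only a change of direction could have failed. In stillborn over spontaneous abortion, 6 of 39 recomputed medians changed sign. Scaling by total reads lowers each log2 ratio of this pair by 0.122, which moved the medians to -0.084 for the members, -0.053 for complex V and -0.047 for complex III. The mean over members was -0.044, and over genes averaging 5 RPKM or more the medians were 0.056 for complex I and 0.037 for complex II. The cause of the sign changes apart from those under scaling by total reads was not tested.

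Counts followed the fold threshold. At 1.5-fold, 15 members were lower in stillborn over alive, 7 in spontaneous abortion over alive and 8 in stillborn over spontaneous abortion, where 2 were higher. At 4-fold each of these counts, and that of members higher in spontaneous abortion over alive, was 0. At 2-fold the last was 1 without ATP5S and ATP5SL, a choice made after seeing the data, as was recounting the members highest in the alive library under other scalings. With genes matched by gene ID, 2 were lower in spontaneous abortion over alive. Thinned to the smallest total, 0 were lower in stillborn over spontaneous abortion. The members' share of summed RPKM became 0.850%, 0.988% and 1.14% without the 10 genes of highest mean RPKM, and 0.272%, 0.298% and 0.358% as reads, in the order stillborn, spontaneous abortion and alive. Depth limits genes with few reads, such as COX7B and SDHD.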
